A study of Mus musculus with 6 samples.

Results

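The 42 genes described here carry fatty acids into the heart muscle cell and burn them. They were chosen by name and role, with no measured value in the rule, from the uptake proteins, acyl-CoA synthetases, carnitine shuttle, mitochondrial beta-oxidation enzymes, ketone-using enzymes and transcriptional regulators, and all 42 were among the 26012 genes of the deposited table. Whether these genes differ between infarcted hearts given miR-19a/19b and infarcted hearts given a control was the question of the comparison. The RNA came from ventricles of 6 male C57BL/6 mice, 8 weeks old, 4 days after myocardial infarction (MI) made by tying off the left anterior descending artery. In 3 hearts a control mimic, and in the other 3 a mixture of miR-19a and miR-19b mimics, was injected into the muscle around the infarct at surgery, 10 μg per heart in both groups. A mimic is a synthetic RNA that acts as the mature microRNA. Every heart had been infarcted and injected, with no uninjured heart among the 6, and neither the labels nor the methods say how much of the scar, its border or the distant wall went into each RNA sample.

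The adult heart draws most of its energy from fatty acids. They are taken up and bound in the cytosol, activated to acyl-CoA, passed into mitochondria as carnitine esters and shortened step by step, with the electrons handed to the respiratory chain. PPARα and the estrogen-related receptors, with the coactivator PGC-1α, drive transcription of these genes, and an injured or failing heart is known for lowering them.

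The injected microRNAs are shown first because their seed, bases 2 to 8 counted from the 5′ end and printed in capitals, decides which messages they can pair with. The sequences are those of RefSeq on GRCm38.p6, where miR-19a-3p lies at chr14:115044048-115044070 and miR-19b-3p at chr14:115044358-115044380, both on the plus strand within the Mir19a and Mir19b-1 genes. They are 23 bases long and differ at 1 position, 11, outside the seed.
mmu-miR-19a-3p: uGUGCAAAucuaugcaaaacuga
mmu-miR-19b-3p: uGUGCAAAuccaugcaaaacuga

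Matches to the shared seed were counted in the longest 3′ UTR of each gene in GENCODE M21, as the 8-mer TTTGCACA, the 7-mer TTTGCAC or the 7-mer TTGCACA, a 7-mer inside an 8-mer being counted once. A match was found in 9 of 42 fatty acid genes (21.4%), beside 3070 of 15866 tested genes with a 3′ UTR (19.3%). An 8-mer was found in 4 of the 42 (9.52%) and in 5.81% of all genes. The 8-mers of these 4 are printed in capitals with the bases around them, because they are the strongest matches among the genes described. They lie in the 3′ UTRs of Ppara at chr15:85801335-85801342 on the plus strand, Slc25a20 at chr9:108684574-108684581 on the plus strand, Acadm at chr3:153922483-153922490 on the minus strand and Acsl4 at chrX:142320648-142320655 on the minus strand (GRCm38).
Ppara: agagcagggaTTTGCACAgagggcctcc
Slc25a20: gaaggctcctTTTGCACAttctttcccc
Acadm: tttgctttgtTTTGCACAaaagagtaaa
Acsl4: ctgatttccaTTTGCACAggaggtggcc

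The other genes with a match held 7-mers, in Acacb, Acsl1, Hadha, Oxct1 and Ucp3. Acsl4 held the most, 3 matches. The fitted log2 fold changes of the 9 genes with a match, from the comparison described below, ran from -0.11 to 0.89 with 8 above 0, and those of the 33 without ran from -0.30 to 0.93 with 30 above 0. The median was 0.299 with a match and 0.206 without, and the 3′ UTRs of the first were longer, with a median of 1511 bases against 581. A match is a run of letters and not a measured binding site.

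No fatty acid gene differed between the groups past the test. The levels are normalized counts, that is, reads of a gene divided by its library's size factor, and the depth of the libraries was 19398196 to 23645308 reads on genes. All 42 genes passed the filter of a mean of at least 1, which left 21126 genes to test with limma on log2(normalized count + 1). Of the 42, 0 were called at a Benjamini-Hochberg adjusted p under 0.05, as were 0% of all genes tested, and the smallest adjusted p among them was 0.9996. At an unadjusted p under 0.05, 1 of the 42 was higher in miR-19a/19b mimic hearts, where 1.39% of all genes were, and 0 were lower, where 2.63% of all genes were. On recovered reads, 0 of the 42 were called by DESeq2, edgeR's exact test or its quasi-likelihood test, where 0.137%, 0.142% and 0% of all genes were. At an unadjusted p under 0.05 these tests had 1, 2 and 2 of the 42, and 2.74%, 3.92% and 3.96% of all genes. Of the 42 fold changes, 38 were above 0 and 4 below. Their median was 0.233 on the log2 scale, beside 0.0041 over all genes tested.

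The hearts themselves were far apart, and in a common order. For 29 of the 42 genes (69%), miR-19a/19b mimic replicates 1 and 2 had the highest values of the 6 hearts and miR-19a/19b mimic replicate 3 the lowest, below every control heart. Over all genes tested the same order held for 8.55%. The order was described after the values were seen. The summed level of the 42 genes was 147276, 114392 and 159174 normalized counts in the control mimic hearts and 210159, 218107 and 101356 in the miR-19a/19b mimic hearts. They took up from 0.505% of the reads, in miR-19a/19b mimic replicate 3, to 0.977%, in miR-19a/19b mimic replicate 2.

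**Figure D1:**
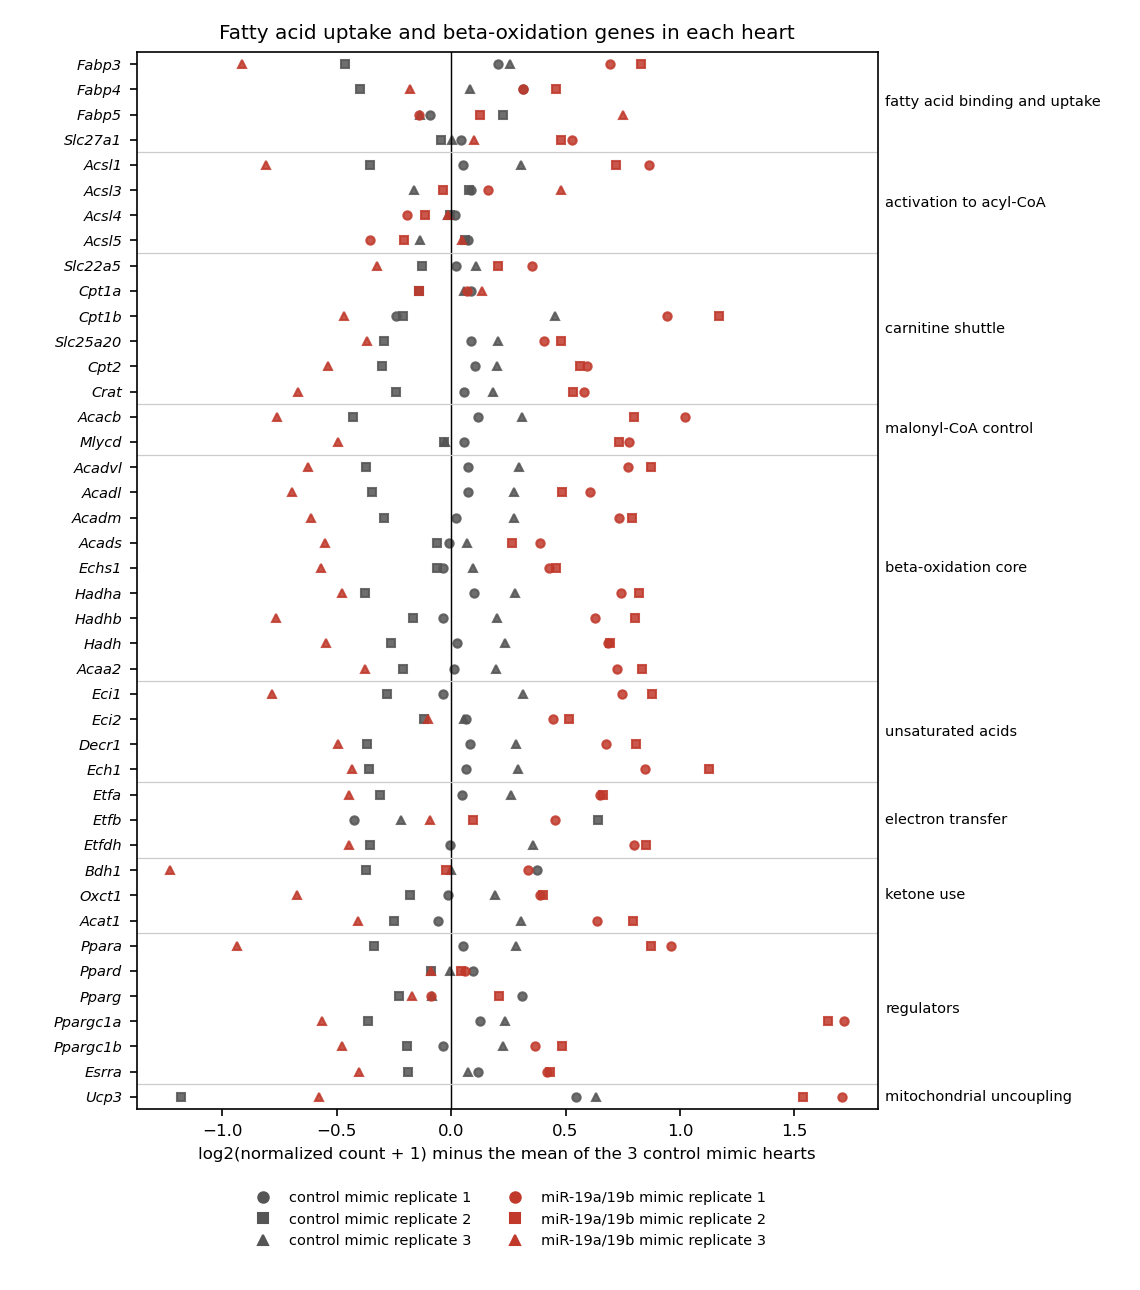
The level of each of the 42 genes in each heart, on the horizontal axis as log2(normalized count + 1) minus the mean of the 3 control mimic hearts, with the genes grouped by role. Grey symbols are control mimic hearts and red symbols miR-19a/19b mimic hearts. For 29 genes the red circle and square lie to the right of every control heart and the red triangle to the left of every other heart.

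Markers of heart muscle also had their highest values in miR-19a/19b mimic replicates 1 and 2 and their lowest in replicate 3. The summed level of 15 cardiomyocyte markers, none of them listed at 0, was 749626, 635964 and 828886 in the control mimic hearts and 1138730, 1026360 and 389128 in the miR-19a/19b mimic hearts. All 15 were lowest in miR-19a/19b mimic replicate 3, and 14 were highest in the other 2 miR-19a/19b mimic hearts. The share of reads on mitochondrial genes was 4.96%, 4.18% and 5.88% in the control mimic hearts and 6.86%, 6.93% and 3.18% in the miR-19a/19b mimic hearts. Fibroblast markers, 8 in all, summed to 503021, 569899 and 617236 in the control mimic hearts and 546627, 436719 and 698925 in the miR-19a/19b mimic hearts, and 6 neutrophil markers to 1838, 1686 and 1525 and to 736, 1297 and 2389. Both were highest in miR-19a/19b mimic replicate 3, and the part of these cells in the results was not tested. In RNA of whole ventricle, fewer cardiomyocytes and less RNA per cardiomyocyte cannot be told apart. Per 1000 counts of the cardiomyocyte markers, the fatty acid genes summed to 196, 180 and 192 counts in the control mimic hearts and 185, 213 and 260 in the miR-19a/19b mimic hearts. The heart with the lowest sum was thus the one with the most fatty acid gene counts per cardiomyocyte marker count. That sum also holds genes of other cells, among them Fabp4 at 10920 and Fabp5 at 6743 counts in this heart. The ratio is therefore not a level per cardiomyocyte. With every heart scaled to its cardiomyocyte markers, 0 of the 42 genes had a p under 0.05 and the median log2 fold change was 0.166, with 34 above 0 and the median of all genes at -0.058.

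**Figure D2:**
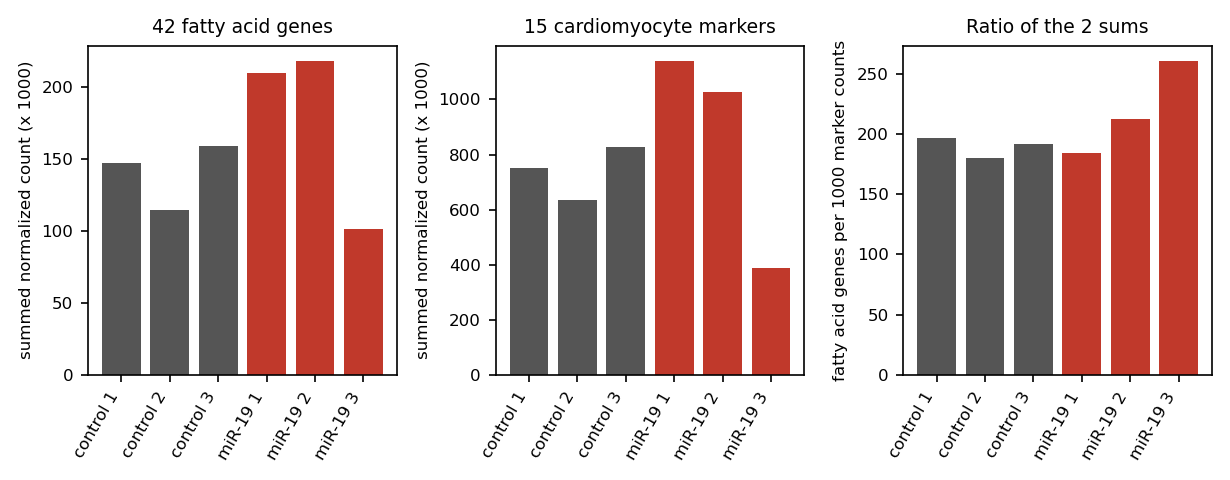
Summed normalized counts of the 42 fatty acid genes and of the 15 cardiomyocyte markers (first 2 panels, axes in units of 1000), and the fatty acid gene counts per 1000 marker counts, with 1 bar per heart. In both sums replicates 1 and 2 of the miR-19a/19b mimic group are the highest hearts and replicate 3 the lowest, at 101356 and 389128, and in the ratio that heart is highest at 260.

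Because 1 heart ran against the other 2 of its group, the fit was repeated without each heart in turn. With miR-19a/19b mimic replicate 3 left out, 23 of the 42 genes were called higher in the 2 remaining miR-19a/19b mimic hearts, beside 1.71% of all genes tested, and 0 were called lower, beside 0.729%. The median log2 fold change of the 42 was then 0.568, and the smallest adjusted p was 0.0027. Of the 15 cardiomyocyte markers, 6 were called higher in the same fit and 0 lower. Their median log2 fold change was 0.663, above that of the 42, so the rise was not particular to the fatty acid genes. Leaving out any other single heart gave 0 calls among the 42, and without miR-19a/19b mimic replicate 1 or 2 the median was 0.034 and 0.063. The 23 calls were thus made only with that heart left out, and 19 of the 42 genes changed the sign of their fold change when some heart was left out.

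**Figure D3:**
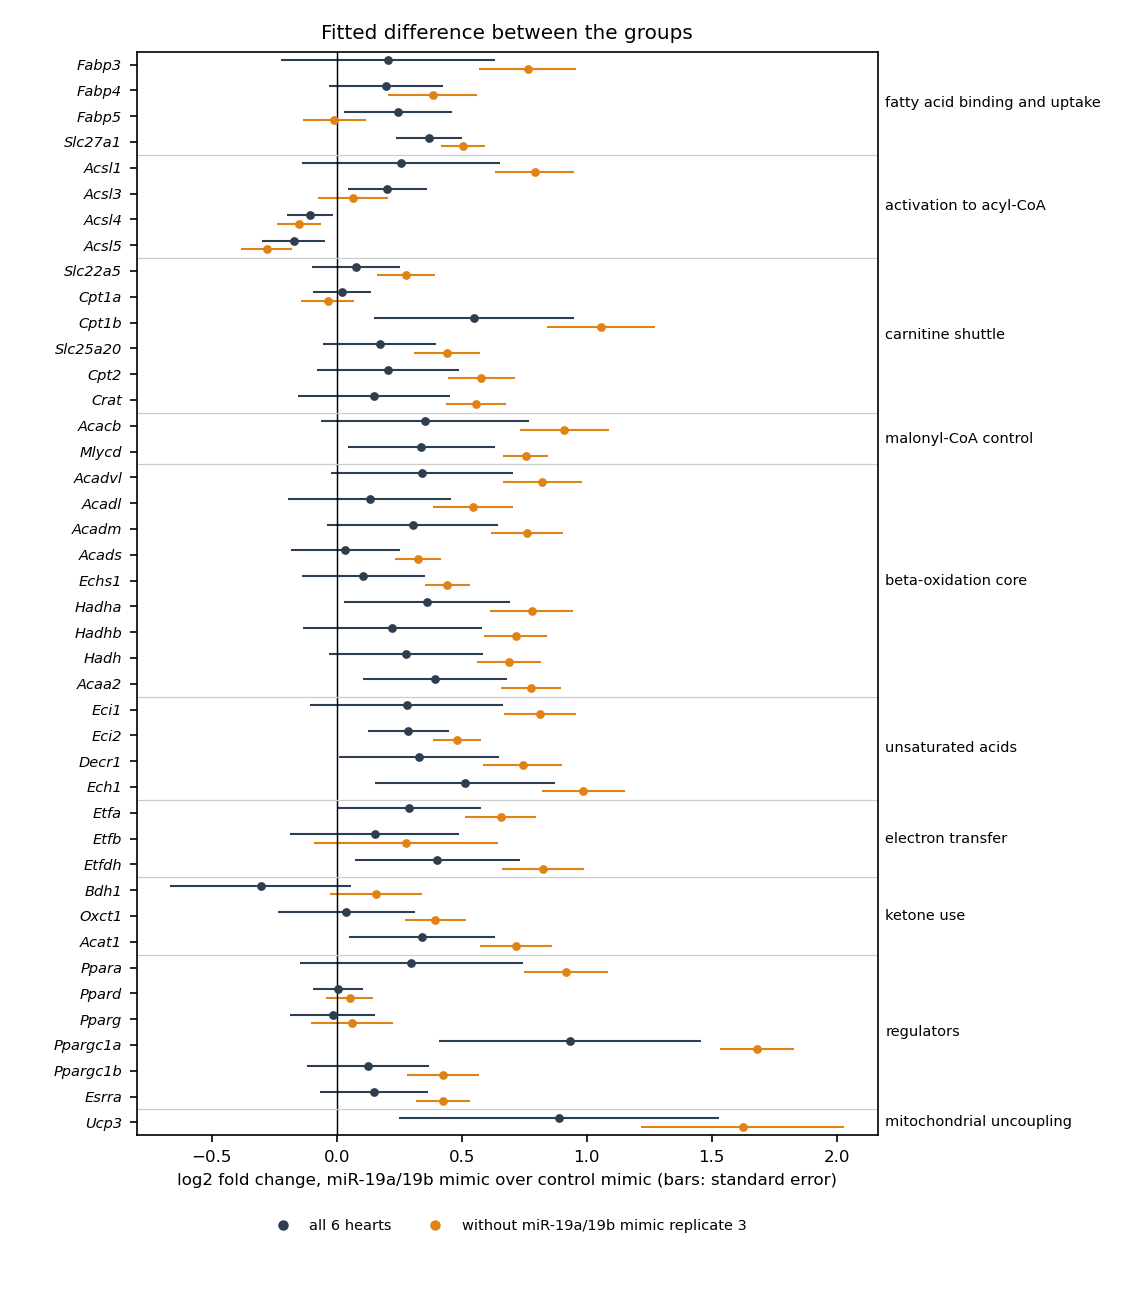
Fitted log2 fold changes, miR-19a/19b mimic over control mimic, with standard errors as bars, for all 6 hearts (dark) and without miR-19a/19b mimic replicate 3 (orange). With 6 hearts 38 of 42 points lie above 0 and 0 pass the adjusted threshold. Without that heart 23 pass, all of them above 0.

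Among the uptake proteins, Slc27a1 was the single fatty acid gene with an unadjusted p under 0.05. Slc27a1 encodes FATP1, a membrane protein that couples fatty acid import to acyl-CoA formation, at chr8:71568927-71586708 on the plus strand (GRCm38). Its normalized counts were 3270, 3078 and 3189 in the control mimic hearts and 4582, 4436 and 3402 in the miR-19a/19b mimic hearts. The groups did not overlap, which held for 2 of the 42 genes and for 9.2% of all genes tested. The log2 fold change was 0.37 ± 0.13 (standard error, n = 3 hearts per group), with a limma p of 0.0209 unadjusted and 0.9996 adjusted. It stayed between 0.29 and 0.50 with any single heart left out. Without miR-19a/19b mimic replicate 3 its adjusted p was 0.0216. Scaled to the cardiomyocyte markers, its log2 fold change was 0.30 with 6 hearts, where the median of all genes was -0.058. On that scale it was -0.05 in the 5 hearts, where the median of all genes was -0.54. The scaling of 5 hearts was chosen after the data were seen.

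Fabp3, the fatty acid binding protein of heart muscle, was the most abundant of the 42 per kb of gene length, at a mean of 22442 normalized counts per kb. Its counts were 18250, 11490 and 18910 in the control mimic hearts and 25620, 28170 and 8392 in the miR-19a/19b mimic hearts, so that the miR-19a/19b mimic hearts spanned more than the control range on both sides. Fabp4, a binding protein of adipocytes, capillary endothelium and macrophages, had 15400, 9393 and 13110 counts against 15380, 16990 and 10920, and the groups overlapped. Summed endothelial markers lay between 29741 and 36767 in the control mimic hearts and between 32511 and 35273 in the miR-19a/19b mimic hearts. The adipocyte markers other than Lipe, which is also expressed in muscle, summed to at most 24.3 in any heart, with Lep at 0.

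Fabp5, a binding protein found in macrophages and endothelium among other cells, had a different order of hearts from the muscle genes. It read 3761, 4681 and 3648 in the control mimic hearts and 3628, 4366 and 6743 in the miR-19a/19b mimic hearts, highest in the heart where Fabp3 was lowest. Summed over 10 genes, macrophage markers came to 61017, 79048 and 61234 in the control mimic hearts and to 53071, 58943 and 76952 in the miR-19a/19b mimic hearts. The hearts with the most macrophage marker counts were also those with the most Fabp5 in each group, and the part of these cells in the result was not tested.

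The 4 acyl-CoA synthetases, which activate fatty acids by joining them to coenzyme A, had different orders of hearts. Acsl1, the main synthetase of heart muscle, had 4778, 3610 and 5697 counts in the control mimic hearts and 8403, 7596 and 2632 in the miR-19a/19b mimic hearts. Its fitted fold change was 0.26 ± 0.39 on the log2 scale. Acsl4, which prefers arachidonic acid, had 1206, 1188 and 1181 counts against 1044, 1101 and 1179. Its groups did not overlap, by the narrow gap between 1181 and 1179, and its log2 fold change was -0.11 ± 0.09 (unadjusted limma p of 0.286). Acsl5, with 1692, 1680 and 1466 against 1258, 1395 and 1661 counts, had a log2 fold change of -0.17 ± 0.13 (unadjusted limma p of 0.206). Acsl3 had 201 to 239 counts in the control mimic hearts and 220 to 314 in the miR-19a/19b mimic hearts. Acsl3, Acsl4 and Acsl5 were each higher in miR-19a/19b mimic replicate 3 than in either of the other miR-19a/19b mimic hearts.

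In the carnitine shuttle, fold changes of all 6 genes were above 0. At an unadjusted limma p under 0.05, 0 of the 6 differed, beside 1.39% of all genes tested higher and 2.63% lower. Cpt1a and Cpt1b encode the liver and muscle forms of the outer membrane transferase that commits acyl groups to oxidation. Cpt1a was level across the hearts, at 3150, 2691 and 3083 counts against 3113, 2694 and 3262, with a log2 fold change of 0.02 ± 0.12 and a 95% interval from -0.24 to 0.29. Cpt1b had the smallest p of the shuttle, with 85.1, 86.9 and 138 counts against 195, 228 and 72.6 and a log2 fold change of 0.55 ± 0.40 (unadjusted limma p of 0.203).

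The low Cpt1b level is uncertain. In the deposited coordinates the gene lies wholly inside Chkb on the same strand, and 81.4% of its exon bases are shared with Gm44502 on the same strand in GENCODE M21. Chkb, a choline kinase gene, averaged 935 counts in the control mimic hearts and 1119 in the miR-19a/19b mimic hearts. How reads that match more than 1 gene were counted is not given in the sources used here, so the ratio of Cpt1a to Cpt1b cannot be read from these values.

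The other shuttle genes had the common order. Slc22a5, the carnitine importer OCTN2, ranged from 377 to 444 counts in the control mimic hearts and from 329 to 526 in the miR-19a/19b mimic hearts. Slc25a20, the translocase of the inner membrane, ranged from 1386 to 1957 and from 1317 to 2366. Cpt2, the inner transferase, ranged from 1170 to 1657 and from 993 to 2180, and Crat, which exchanges short acyl groups, from 2850 to 3823 and from 2119 to 5041. In each of these the miR-19a/19b mimic hearts held both the lowest and the highest value.

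Malonyl-CoA blocks the outer transferase, and the enzymes that make and remove it at the mitochondrion both had the common order. Acacb, which makes it, had 3779, 2585 and 4311 counts in the control mimic hearts and 7067, 6057 and 2051 in the miR-19a/19b mimic hearts. Mlycd, which breaks it down, had 951, 894 and 896 against 1567, 1519 and 648. The control hearts lay close together for Mlycd, and its log2 fold change was 0.34 ± 0.29 (unadjusted limma p of 0.278). Without miR-19a/19b mimic replicate 3 it was 0.76 ± 0.09 with an adjusted limma p of 0.00783, the smallest after that of Ppargc1a.

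All 9 enzymes of the beta-oxidation core had the common order, as did 8.55% of all genes tested. With 6 hearts, 0 of 9 had an unadjusted limma p under 0.05, where 1.39% of all genes were higher and 2.63% lower. Without miR-19a/19b mimic replicate 3, 7 of 9 were called higher, beside 1.71% of all genes, and 0 lower, beside 0.729%. In that fit 6 of the 15 cardiomyocyte markers were called higher too. The 4 acyl-CoA dehydrogenases take the first step for chains of falling length. Acadvl, for very long chains, had 3848, 2833 and 4504 counts against 6259, 6709 and 2370. Acadl, for long chains, ranged from 6859 to 10540 in the control mimic hearts and from 5383 to 13280 in the miR-19a/19b mimic hearts. Acadm, for medium chains, had 5408, 4352 and 6454 counts against 8873, 9231 and 3490. Acads, for short chains, had 1678, 1616 and 1770 counts against 2206, 2029 and 1151, the smallest ratio of highest to lowest heart of the 4. The fitted log2 fold changes of these 4 were 0.34, 0.13, 0.30 and 0.03, with standard errors from 0.22 to 0.36.

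The later steps of the spiral read alike. Hadha and Hadhb, the subunits of the trifunctional protein of the inner membrane, had 10790, 7764 and 12210 counts against 16840, 17780 and 7235, and 7246, 6607 and 8520 against 11460, 12940 and 4366. Echs1, the hydratase for shorter chains, ranged from 2383 to 2663 in the control mimic hearts and from 1680 to 3417 in the miR-19a/19b mimic hearts. Hadh, the matching dehydrogenase, ranged from 2086 to 2940 and from 1708 to 4041. Acaa2, a thiolase of the step that ends a turn, had the smallest p of the core, with 3655, 3136 and 4155 counts against 5990, 6456 and 2795. Its log2 fold change was 0.39 ± 0.29 (unadjusted limma p of 0.204) with 6 hearts and 0.78 ± 0.12 (adjusted limma p of 0.0125) without miR-19a/19b mimic replicate 3. Acads and Acadl were the 2 core enzymes not called without that heart.

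The auxiliary enzymes deal with the double bonds of unsaturated acids, and all 4 had their highest values in miR-19a/19b mimic replicates 1 and 2. Ech1, an enoyl-CoA isomerase, had 4856, 3624 and 5679 counts in the control mimic hearts and 8347, 10130 and 3438 in the miR-19a/19b mimic hearts. Eci2, another isomerase, had the smallest p, with 1174, 1035 and 1167 counts against 1530, 1608 and 1047 and a log2 fold change of 0.29 ± 0.16 (unadjusted limma p of 0.112). In Eci2 the lowest heart was a control. Eci1 ranged from 1029 to 1551 in the control mimic hearts and from 725 to 2298 in the miR-19a/19b mimic hearts, and Decr1, a dienoyl-CoA reductase, from 1953 to 3070 and from 1787 to 4418.

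The electron transfer flavoprotein, made of the Etfa and Etfb subunits, collects electrons from the dehydrogenases and passes them on through Etfdh. Etfdh had 3241, 2536 and 4166 counts against 5643, 5868 and 2385, with a log2 fold change of 0.40 ± 0.33 (unadjusted limma p of 0.255). Etfa ranged from 3163 to 4697 in the control mimic hearts and from 2878 to 6201 in the miR-19a/19b mimic hearts. Etfb read only 17.7 to 38.1 counts in the control mimic hearts and 22.5 to 33.4 in the miR-19a/19b mimic hearts, the lowest level per kb of the 42 genes at 22.6, against 2465 for its partner subunit. In GENCODE M21, 53% of the exon bases of Etfb are shared with Gm45233 on the same strand, so its count is uncertain too.

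Levels of different genes are set side by side here per kb of the deposited gene length, which need not be the length of the mRNA. For Fabp4 it is 4489 bases, the whole span of chr3:10204088-10208576, and for Fabp3 it is 823. The order of the genes therefore depends on these lengths as well as on the counts. After Fabp3, the highest means were those of Acadl at 4774, Fabp4 at 3015 and Acaa2 at 2881 normalized counts per kb. The spread over the 6 hearts of Acadl, from its lowest to its highest heart, covered the means of both of the latter. The lowest means after those of Etfb and Cpt1b were Acsl3 at 55.9, Ppargc1b at 65.4 and Ppara at 66.3.

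**Figure D4:**
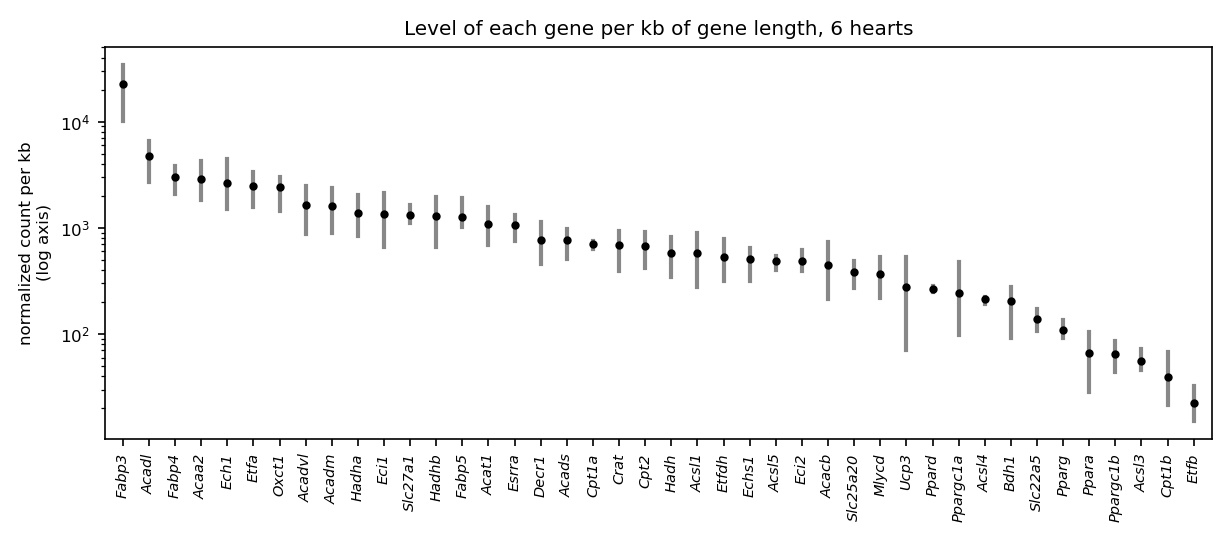
Mean normalized count per kb of gene length over the 6 hearts (points) with the range from the lowest to the highest heart (bars), on a log axis, for the 42 genes in order of their mean. Fabp3 stands highest at 22442 and Etfb lowest at 22.6, and the bars of most neighbours overlap.

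The ketone-using enzymes differed among themselves. Oxct1, which activates acetoacetate, had 8405, 7498 and 9684 counts in the control mimic hearts and 11120, 11190 and 5316 in the miR-19a/19b mimic hearts. Acat1, which splits the product, had 3294, 2884 and 4239 against 5335, 5952 and 2586, with a log2 fold change of 0.34 ± 0.29 (unadjusted limma p of 0.27). Bdh1, which starts the oxidation of beta-hydroxybutyrate, had 1059, 630 and 816 counts against 1031, 804 and 348. Its highest heart was a control, and its log2 fold change of -0.30 ± 0.36 was the lowest of the 42. With miR-19a/19b mimic replicate 3 left out it was 0.16.

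Among the regulators, Ppargc1a had the largest fitted difference of the 42 genes and the smallest p of its role. Ppargc1a encodes PGC-1α, the coactivator that drives mitochondrial and fatty acid oxidation genes, at chr5:51454250-51567726 on the minus strand (GRCm38). Its counts were 1039, 741 and 1121 in the control mimic hearts and 3133, 2980 and 644 in the miR-19a/19b mimic hearts, with the log2 fold change at 0.93 ± 0.53 (unadjusted limma p of 0.11). Its unadjusted p was under 0.05 by both edgeR tests and 0.067 by DESeq2. Its adjusted p was 0.744 by edgeR's exact test and 0.9998 by the quasi-likelihood test. Without miR-19a/19b mimic replicate 3 the log2 fold change was 1.68 ± 0.15, with an adjusted limma p of 0.00269. Its fold change was above 0 with any single heart left out, at the least 0.54. Its relative Ppargc1b ranged only from 213 to 285 counts in the control mimic hearts and from 175 to 341 in the miR-19a/19b mimic hearts.

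The 3 PPAR receptors, which sense fatty acids in the nucleus, had 3 different orders of hearts. Ppara, the main form in oxidative muscle, had 216, 164 and 253 counts against 405, 382 and 108 in the order common to the muscle genes. Ppard was level, at 1322, 1162 and 1230 counts against 1290, 1273 and 1162, with a 95% interval of the log2 fold change from -0.22 to 0.23. Pparg, the adipocyte and macrophage form, had 398, 273 and 303 counts against 301, 371 and 284, with a 95% interval from -0.40 to 0.36. Esrra, the estrogen-related receptor alpha, ranged from 2198 to 2723 in the control mimic hearts and from 1895 to 3386 in the miR-19a/19b mimic hearts.

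Ucp3, a mitochondrial carrier of the uncoupling protein family, had 742, 224 and 788 counts in the control mimic hearts and 1661, 1476 and 340 in the miR-19a/19b mimic hearts. The control mimic hearts already ranged 3.52-fold, and the log2 fold change was 0.89 ± 0.64 (unadjusted limma p of 0.198). Ucp3 is also a skeletal muscle gene, and 11 skeletal muscle markers had a sum of 3424 counts in miR-19a/19b mimic replicate 1, whereas no other heart had more than 76.1 or fewer than 36.1. In miR-19a/19b mimic replicate 2, where these markers summed to 44.3, Ucp3 was at 1476. The part of skeletal muscle in the values of Ucp3, or of any other gene described, was not tested.

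**Figure D5:**
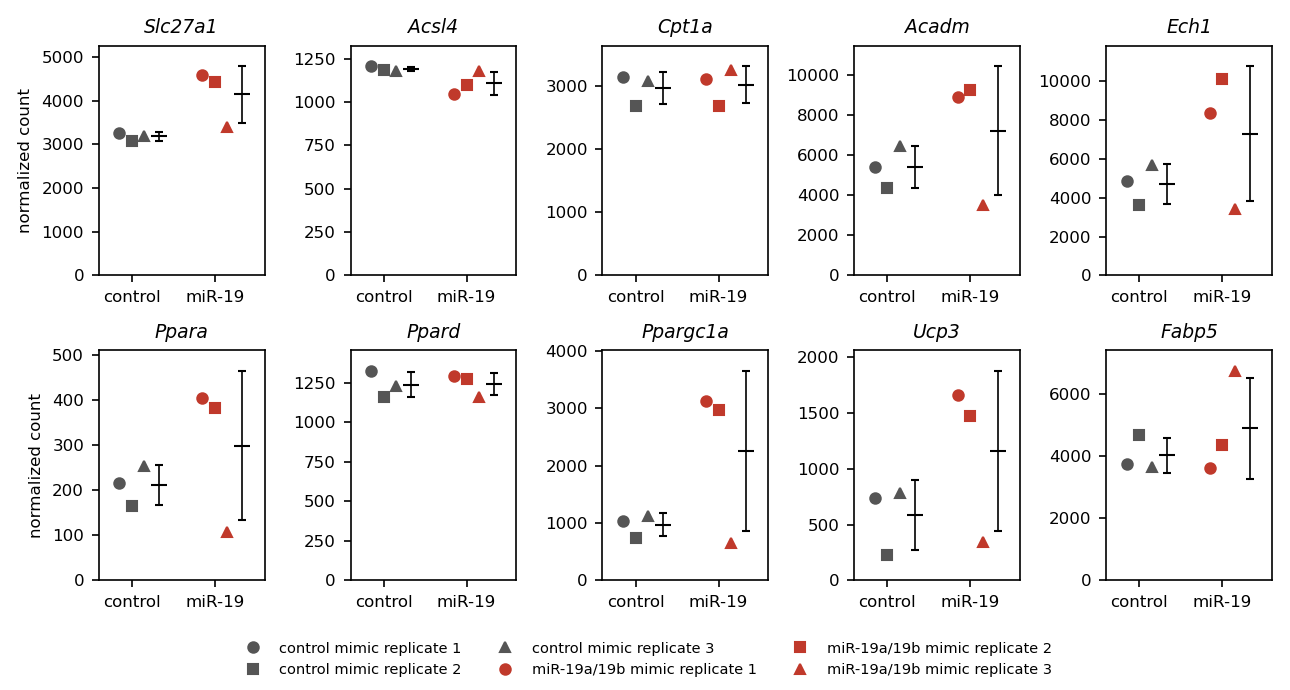
Normalized counts of 10 genes in each heart, with the mean and SD of each group (n = 3) as black bars at the right of its points and axes that start at 0. Grey symbols are control mimic and red symbols miR-19a/19b mimic hearts. Ppargc1a and Ucp3 show the widest gap between miR-19a/19b mimic replicates 1 and 2 and replicate 3, Ppard and Cpt1a the least, and Fabp5 has its highest value in replicate 3.

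Relative to heart muscle markers, 3 of the 42 were called higher in 5 hearts, beside 0.407% of all genes tested, and 5 were called lower, beside 41.6%. In the 5 hearts without miR-19a/19b mimic replicate 3, scaled to the summed cardiomyocyte markers, the median log2 fold change of the 42 was 0.0097, while the median of all genes was shifted to -0.54 by this scaling. Ppargc1a, at 1.12, Ucp3, at 1.07, and Ech1, at 0.43, were the 3 higher. The 5 called lower on this scale, Acsl4, Acsl5, Cpt1a, Fabp5 and Ppard, lay between -0.84 and -0.51, around the shift of all genes. At an unadjusted p under 0.05, 4 of the 42 were higher, beside 0.62% of all genes tested, and 8 were lower, beside 50%. This scaling was chosen after the data were seen.

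The promoters of RefSeq (GRCm38.p6), 250 bases before to 50 after the start, were matched for 34 of the 42 genes. The core of the estrogen-related receptor element, AAGGTCA on either strand, was in 2 of the 34 (5.88%), Acacb and Acadm, and in 5.38% of 27025 genes. The shorter AGGTCA, which lies within it, was in 7 of the 34 (20.6%) and in 18.1% of all genes.

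The rest of the pathway was taken from 7 lists, with 72 genes reported. By limma, 0 of the 72 were called, as were 0% of all genes tested. At an unadjusted limma p under 0.05, 0 were higher, beside 1.39% of all genes, and 0 lower, beside 2.63%.

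The order common to the muscle genes held for 10 of 12 other mitochondrial acyl-CoA enzymes, 5 of 9 other uptake genes, 6 of 11 lipid droplet genes and 8 of 17 partners and coregulators of the receptors. It held for 3 of 12 genes of peroxisomal oxidation, 0 of 4 other PPAR targets and 0 of 7 genes of fatty acid synthesis. Over all genes tested it held for 8.55%. Of the PPAR targets, Pdk4 missed it only because control mimic replicate 2, at 12040, lay below miR-19a/19b mimic replicate 3, at 12620. Fgf21 had only 1.03 to 5.38 counts. The median log2 fold changes of the 7 lists lay between 0.0092, for the other PPAR targets, and 0.227, for the other mitochondrial enzymes. Without miR-19a/19b mimic replicate 3, 14 of the 72 were called higher, beside 1.71% of all genes tested, and 0 lower, beside 0.729%.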

How the data were processed

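RNA-seq libraries of 6 mouse ventricles were grouped as their labels give them, 3 control mimic and 3 miR-19a/19b mimic. The authors trimmed reads, aligned them with STAR 2.5.1b and counted them per gene with HTSeq 0.6.0. The submitters' processing notes also name DESeq2 1.10.1 and the build mm9, whereas start and end of 34 of the 42 genes equal those of GENCODE M21 on GRCm38. The deposited signal is a normalized count, and 100% of values in each library were whole multiples of 1 read within 0.01 reads, so that reads could be recovered. Size factors ran from 0.905 to 1.16. The deposited comparison columns hold the authors' fold changes and p-values and were not used.

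Genes with a mean of at least 1 were fitted on the log2(normalized count + 1) scale by limma 3.58.1 under R 4.3.3, with eBayes set to a trend, and adjusted over all of them by Benjamini-Hochberg, so fold changes of low genes are understated. edgeR 4.0.16 and DESeq2 1.42.0 on recovered reads, other scalings, pseudocounts and filters, a replicate block and leaving out each heart were alternatives. The fits were tested on simulated data. Labels do not say that replicates are separate animals, while the methods call them biological. Chi-square per degree of freedom between replicates of a group was 10.3 to 135, so none was the same library sequenced again. These values cannot show that the replicates are separate animals. All 42 genes are named. Full statistics are given in each role for genes with an unadjusted p under 0.05, with groups that do not overlap or with the smallest p, and of the other lists for genes with a p under 0.05. The genes, lists and markers were chosen with earlier results of these data known, and 1 gene of these lists is not reported here. The library kit and counting are not stated to keep strand, and 15 of the 42 share exon bases with another gene, 8 of them with a protein-coding gene on the other strand, among them 42.9% of Acadvl with Dvl2.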

Additional observations from a re-analysis of the deposited data

How the results depend on the processing

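The count of 0 called genes among the 42 held under the 3 tests on recovered reads, scaling to total reads or to cardiomyocyte markers, a pseudocount of 0.1, no filter, at least 10 reads in every heart and the replicate block. The count of genes higher at an unadjusted p under 0.05, 1 as reported, was 2 with edgeR's exact test, 2 with its quasi-likelihood test and 0 after scaling to cardiomyocyte markers. With 1 heart left out, called genes ran from 0 to 23, genes higher from 0 to 32, genes lower from 0 to 1 and the median log2 fold change from 0.034 to 0.568. Each of these highest values was reached without miR-19a/19b mimic replicate 3, and the 1 lower gene was Acsl5. Same-numbered hearts had correlations of their deviations from the group mean of 0.056, -0.335 and -0.449. These cannot show whether the numbers pair the hearts, because deviations within a group of 3 are tied to each other. With the replicate block, 0 of the 42 were called, 1 was higher and 0 were lower, and it changed no other call.

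The sign of some single fold changes turned, none of them called in the main fit with 6 hearts. Acsl1, Crat, Echs1, Hadhb, Eci1 and Ppara were called higher without miR-19a/19b mimic replicate 3 and fell below 0 with some other heart left out. Scaled to total reads, Cpt1a was -0.0028 and Ppard -0.020. Scaled to cardiomyocyte markers, Cpt1a was -0.046, Acads -0.034, Oxct1 -0.029 and Ppard -0.063. With 1 heart left out, Fabp3 ran from -0.11 to 0.76, Fabp4 from -0.0027 to 0.38, Fabp5 from -0.0089 to 0.44, Acsl1 from -0.045 to 0.79, Slc22a5 from -0.061 to 0.28, Cpt1a from -0.049 to 0.10 and Crat from -0.067 to 0.56. Acadl ran from -0.11 to 0.55, Acads from -0.14 to 0.33, Echs1 from -0.069 to 0.44, Hadhb from -0.068 to 0.72, Eci1 from -0.019 to 0.81 and Etfb from -0.059 to 0.47. Bdh1 ran from -0.62 to 0.16, Oxct1 from -0.14 to 0.40, Ppara from -0.031 to 0.92, Ppard from -0.040 to 0.053, Pparg from -0.13 to 0.14 and Ppargc1b from -0.055 to 0.43.

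The fit of the 5 hearts without miR-19a/19b mimic replicate 3, scaled to cardiomyocyte markers, was chosen after the data were seen. It moves the median of all genes to -0.54. In this fit 8 of the 42 were called, 3 higher, beside 0.407% of all genes tested, and 5 lower, beside 41.6%. At an unadjusted p under 0.05, 4 were higher, beside 0.62% of all genes tested, and 8 lower, beside 50%. There the values that turned below 0 were Fabp4 at -0.17, Fabp5 at -0.57, Slc27a1 at -0.054, Acsl3 at -0.49, Slc22a5 at -0.28, Cpt1a at -0.59, Slc25a20 at -0.12, Crat at -0.00069, Acadl at -0.014, Acads at -0.23, Echs1 at -0.12, Eci2 at -0.077, Etfb at -0.26, Oxct1 at -0.16, Ppard at -0.51, Ppargc1b at -0.13 and Esrra at -0.13. Of these, Fabp5, Cpt1a and Ppard were among the 8 called. The shift is built into the scaling, since the marker sums of these hearts differ between the groups, and the cause of the other changes was not tested. The standard errors of the 42 ran from 0.09 to 0.64 with 6 hearts. Low counts limit the values of Etfb and Cpt1b, which had between 17.7 and 228 per heart. Both counts are also uncertain because of the exon bases shared with other genes.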
